A study of Saccharomyces cerevisiae with 8 samples.

Results

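The engineered xylose-fermenting strains XH7 and BSGX001 of Saccharomyces cerevisiae were compared by RNA-seq at 14 h of a batch fermentation begun on a mixture of glucose and xylose (20 g/L of each), when glucose had been used up and xylose remained. This point is named the GX stage. Samples were chosen by strain and stage from the labels, and they were 4 of the 8 in the series, with 2 duplicate fermentations of each strain. Expression in XH7 was set against BSGX001 for 5921 genes tested of 6170 in the tables. The other 4 samples, taken at 12 h of a fermentation on 20 g/L xylose alone (the X stage), served as the closest comparison and share no library with the GX stage samples.

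XH7 carries a xylose isomerase (XI) cassette at PHO13, a pentose phosphate pathway (PPP) cassette at GRE3, a xylulokinase (XK) cassette, and further XI copies at delta sequences (3δ::XI). BSGX001 carries Ru-XI and XK, the PPP cassette at GRE3, and a deletion of COX4 (cox4Δ), a subunit of cytochrome c oxidase. The study's text gives both strains a PHO13 deletion, which the label of BSGX001 does not name. Both strains had been adapted by evolution in xylose, and each group is 1 strain, so a difference holds for these strains. The stages also differ in time and in the sugar at the start. The labels give CEN.PK113-5D as the parent of both, whereas the study's methods give it for BSGX001 only. Those methods describe XH7 as derived from a diploid natural isolate. The study's text calls BSGX001 haploid and XH7 diploid, and its strain list gives CEN.PK113-5D as MATa with a ura3 mutation. All 8 fermentations ran at one temperature and pH with low aeration. Reads of both strains were counted against one gene set of the CEN.PK type, so RNA level, gene content, copy number, ploidy and the matching of XH7 reads to those genes cannot be told apart.

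When glucose runs out, yeast cells normally leave fermentative growth. Genes of ribosome synthesis are turned down, while stress proteins, storage carbohydrates, respiration and the use of other carbon sources are turned up, in large part through the Snf1 and protein kinase A pathways and the factors Msn2 and Msn4. Xylose is not a native fermentable sugar of this yeast, and it enters the PPP as xylulose 5-phosphate after isomerization and phosphorylation. Mating type sets a separate programme: haploid a cells express a-specific and haploid-specific genes, and a/alpha diploids repress both.

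Total gene counts were 5431137 and 6268553 in the XH7 libraries and 7274187 and 7458549 in the BSGX001 libraries, with 6061 to 6067 and 6091 to 6100 genes detected. Counts scaled to library size by TMM are named CPM. A count of 0 allows up to 0.477 and 0.553 CPM in the XH7 libraries and 0.373 and 0.385 CPM in the BSGX001 libraries, for counting error only. COX4 had 426 and 409 CPM in XH7 and 0 counts in both BSGX001 libraries, at least 1100-fold higher in XH7 against the limit of 3 counts per library, as the label's deletion would give. GRE3, an aldose reductase, was still counted in both strains, at 28.8 and 26.7 CPM in XH7 against 41.6 and 46.3 CPM in BSGX001. PHO13, a phosphatase gene, had 54.6 and 45.2 CPM in XH7 and 63.7 and 69.1 CPM in BSGX001. Whether those reads come from a remaining copy or from parts of the genes outside the insertions was not tested. URA3, a uracil synthesis gene often used as a marker, had 267 and 316 CPM in XH7. Its level was 1782 and 2042 CPM in BSGX001 (log2 difference -2.71, SE 0.14). The study's plasmid list names pJX7 with Ru-xylA and a URA3 marker, but its entry for BSGX001 does not name this plasmid. The source of the URA3 reads was not tested. In the GX stage the 2 XH7 libraries differed from each other more than the 2 BSGX001 libraries did. The chi-square over genes was 19.1 and 4.09 per degree of freedom. In the X stage, whose libraries are in the same fit, the order was the reverse, at 7.01 for XH7 and 37.6 for BSGX001. No pair agreed within sampling noise. The labels call the samples duplicates and name no further source, so p-values measure the spread between these fermentations only.

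The promoter letters of a few genes on which the results turn are shown here, from 250 bases before to 50 bases after the start codon in the R64 reference (RefSeq), not in either strain. HSP12 and DDR2, both far lower in XH7, hold the core of the stress response element, AGGGG on either strand, which Msn2 and Msn4 are known to bind and which is in capitals:
HSP12 (chrVI:107006-107305, plus strand): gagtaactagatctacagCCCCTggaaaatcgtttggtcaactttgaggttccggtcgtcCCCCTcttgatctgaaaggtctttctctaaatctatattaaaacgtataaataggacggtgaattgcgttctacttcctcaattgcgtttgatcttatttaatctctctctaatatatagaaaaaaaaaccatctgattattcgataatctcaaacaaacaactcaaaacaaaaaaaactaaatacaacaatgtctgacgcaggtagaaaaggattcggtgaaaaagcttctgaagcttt
DDR2 (chrXV:231706-232005, minus strand): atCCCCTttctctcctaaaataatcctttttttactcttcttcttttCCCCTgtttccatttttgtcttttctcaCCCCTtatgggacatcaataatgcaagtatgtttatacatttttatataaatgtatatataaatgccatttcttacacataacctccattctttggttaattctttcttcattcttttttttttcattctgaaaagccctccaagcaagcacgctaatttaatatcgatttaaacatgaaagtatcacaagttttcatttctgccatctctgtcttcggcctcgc
NUG1, for a nuclear GTPase of the large ribosomal subunit, and NSR1, for a nucleolar protein of rRNA processing, were higher in XH7. Their windows hold the PAC element GCGATGAG and the core AAAATTTT of the rRNA processing element (RRPE), both in capitals:
NUG1 (chrV:162473-162772, plus strand): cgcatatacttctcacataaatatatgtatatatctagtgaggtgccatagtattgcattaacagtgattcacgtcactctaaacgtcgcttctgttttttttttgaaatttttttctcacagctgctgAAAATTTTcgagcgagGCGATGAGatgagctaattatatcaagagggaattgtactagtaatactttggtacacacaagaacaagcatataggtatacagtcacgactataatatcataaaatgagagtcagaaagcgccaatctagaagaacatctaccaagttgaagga
NSR1 (chrVII:807607-807906, minus strand): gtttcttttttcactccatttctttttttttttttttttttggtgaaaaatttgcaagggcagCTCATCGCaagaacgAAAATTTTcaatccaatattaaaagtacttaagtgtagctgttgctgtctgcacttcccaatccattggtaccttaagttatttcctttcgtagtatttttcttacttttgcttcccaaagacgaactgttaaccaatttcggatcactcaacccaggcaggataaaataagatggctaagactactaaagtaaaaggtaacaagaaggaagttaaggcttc
STE2, the receptor for alpha factor, and FUS3, a kinase of the pheromone pathway, were lower in XH7. Their windows hold the pheromone response element TGAAACA, in capitals:
STE2 (chrVI:82330-82629, plus strand): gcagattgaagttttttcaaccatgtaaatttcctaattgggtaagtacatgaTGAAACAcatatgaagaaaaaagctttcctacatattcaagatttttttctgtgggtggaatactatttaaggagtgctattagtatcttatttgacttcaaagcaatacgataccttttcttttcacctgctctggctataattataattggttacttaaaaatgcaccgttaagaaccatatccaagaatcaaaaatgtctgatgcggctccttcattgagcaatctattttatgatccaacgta
FUS3 (chrII:192201-192500, plus strand): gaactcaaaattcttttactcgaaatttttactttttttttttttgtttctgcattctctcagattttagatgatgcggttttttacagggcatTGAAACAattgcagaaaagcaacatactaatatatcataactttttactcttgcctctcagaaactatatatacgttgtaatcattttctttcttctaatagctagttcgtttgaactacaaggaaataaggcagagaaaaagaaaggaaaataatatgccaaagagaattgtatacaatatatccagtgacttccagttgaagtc

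Across all genes, the letters of these elements were spread unevenly over the genes that differed between the strains. Letters were searched on both strands. AAAATTTT was in 29.9% of the 586 promoters of genes called higher in XH7, in 2.69% of the 706 promoters of genes called lower, and in 9.23% of all 5588 promoters. GCGATGAG was in 12.1% of the promoters of genes called higher, in 0.708% of those called lower and in 4.13% of all. AGGGG ran the other way, with 15.9% of the promoters of genes called higher, 34.0% of those called lower and 21.9% of all. TGAAACA was in 5.97%, 9.35% and 7.27% of the same groups, and in 71.4% of the 7 promoters of a-specific genes. The operator of the a1-alpha2 repressor was in 0.0716% of all promoters and in 9.09% of the 11 promoters of haploid-specific genes. CCAAT, bound by the Hap complex, was in 37.7%, 45.0% and 44.0%, while GCGGGG was in 1.88%, 3.26% and 2.67%. The E-box CACGTG was in 3.24%, 2.41% and 3.01%. Windows of divergent neighbours overlap, and a match describes letters in a window, not a bound site.

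In the GX stage, 642 genes were higher and 780 lower in XH7 than in BSGX001 by at least 2-fold at an adjusted p of 0.05 or less (edgeR quasi-likelihood F test, Benjamini-Hochberg), together 24.0% of the genes tested. Differences of 4-fold or more numbered 105 higher and 255 lower, and differences of 16-fold or more 16 higher and 48 lower. At any size of change, 1977 genes (33.4%) passed the test as higher and 1929 (32.6%) as lower, with a median log2 difference of 0.014 over all genes. In all 1422 called genes the libraries of the strains did not overlap, against 84.8% of all genes tested. The median was -0.091 when library totals were used for scaling in place of TMM, which gave 529 higher and 922 lower calls.

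The most abundant transcript per length was a different gene in each strain, although MAL32, TDH3, CCW12, HXK1, GPM1 and TMA10 stood in the top 10 of both. In XH7 the first was DSF1, a gene close in sequence to mannitol dehydrogenases, with 19116 and 16155 FPKM. The same gene had 101 and 107 FPKM in BSGX001, where it ranked 1934. Copies were searched only among the genes counted, so reads from an uncounted copy of DSF1 could not be told apart. In BSGX001 the first was HSP26, a small heat shock chaperone, with 17.6 and 12.9 FPKM in XH7 libraries, where it ranked 5113, against 13098 and 13106 FPKM in BSGX001 libraries. As TMM-scaled counts, HSP26 had 10.5 and 7.74 CPM in XH7 against 7245 and 7195 CPM in BSGX001 (log2 difference -9.62, SE 0.64, adjusted p = 2.62e-06). DSF1 had 15972 and 13554 CPM in XH7 against 78.0 and 82.4 CPM in BSGX001 (7.52, SE 0.23, adjusted p = 7.41e-08). The glycolytic TDH3, in rank 4 of both strains, had 10697 and 6907 CPM in XH7 and 7970 and 8616 CPM in BSGX001, and it did not pass the test (0.09, SE 0.19).

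**Figure D1:**
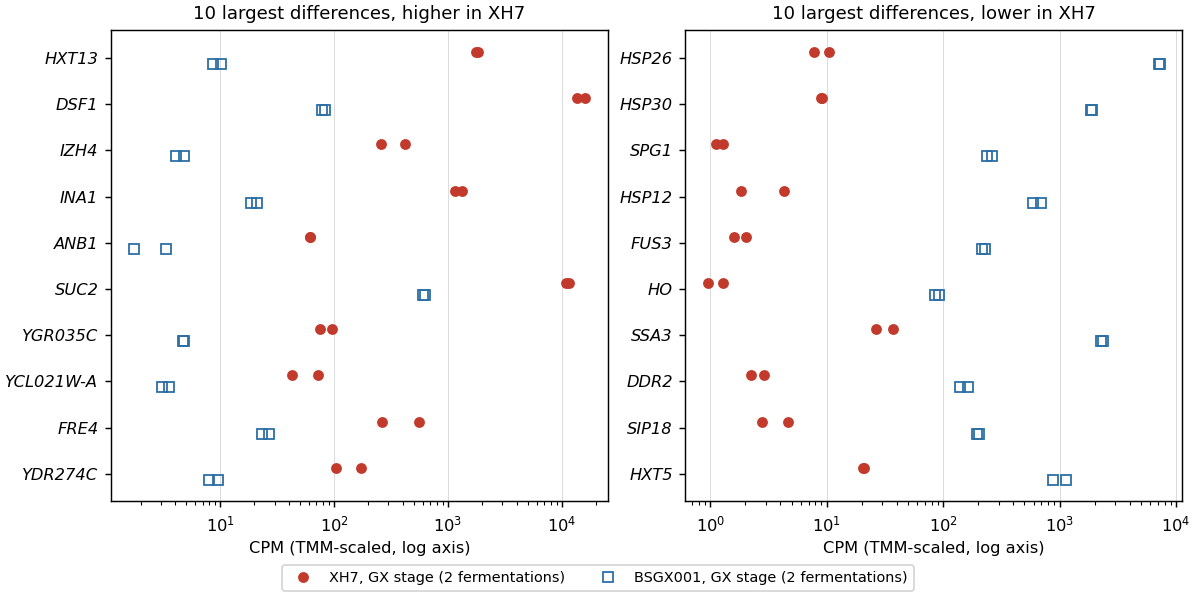
The 10 largest differences in each direction, by library. Genes shown had a mean log2 CPM of 3 or more, counts in all 4 GX libraries and no near-identical copy among the genes counted. Each row is a gene, the log axis gives CPM, filled circles are the 2 XH7 fermentations and open squares the 2 BSGX001 fermentations of the GX stage. The strains do not overlap in any row, from HXT13 (log2 difference 7.56) to HSP26 (-9.62).

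Of the 7 a-specific genes all were lower in XH7, and so were all 11 haploid-specific genes measured, 10 of them by 2-fold or more. Both groups were thus lower in every member, whereas 32.6% of all genes were lower. STE2 had 16.9 and 17.5 CPM in XH7 against 407 and 414 CPM in BSGX001 (log2 difference -4.58, SE 0.12, edgeR adjusted p = 4.63e-08). BAR1, the protease that degrades alpha factor, had 11.1 and 6.82 CPM in XH7 and 181 and 183 CPM in BSGX001. AGA2, the binding subunit of a-agglutinin, was at 1.11 and 0.737 CPM in XH7 against 45.2 and 56.8 CPM in BSGX001. The a-factor genes MFA1 and MFA2 had no counts in XH7, at least 5.98-fold and 7.93-fold lower by the limit of 3 counts per library, and were themselves low in BSGX001, at 3.73 and 2.44 CPM and at 4.84 and 3.33 CPM. STE6, the a-factor exporter, stayed at 39.1 and 37.2 CPM in XH7 against 204 CPM in each BSGX001 library, and ASG7 was at 3.18 and 4.61 CPM in XH7 against 19.5 and 19.2 CPM in BSGX001. The fitted median of the a-specific genes was -4.58, or -2.99 with MFA1 and MFA2 placed at their limits.

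Among haploid-specific genes, FUS3 had 1.59 and 2.03 CPM in XH7 against 215 and 227 CPM in BSGX001 (log2 difference -6.93, SE 0.24, edgeR adjusted p = 1.21e-07). HO, the mating type switching endonuclease, had 0.955 and 1.29 CPM in XH7 against 92.9 and 84.6 CPM in BSGX001. The subunits of the G protein that relays the pheromone signal were lower together: STE18 (-4.14), GPA1 (-3.07) and STE4 (-2.63). NEJ1, a factor of DNA end joining, was at 2.23 and 2.03 CPM in XH7 and at 29.9 and 30.9 CPM in BSGX001, and the scaffold STE5 at 10.2 and 10.1 CPM in XH7 and 79.0 and 73.3 CPM in BSGX001. AMN1 (-3.02), which acts in daughter cell separation and mitotic exit, RDH54 (-2.06), a recombination helicase, and AXL1 (-1.39), the a-factor protease, were lower by less. FAR1, the pheromone-induced cell cycle inhibitor, showed the least difference (-0.91, SE 0.11). Of 3 alpha-specific genes, the a-factor receptor STE3 was lower (8.75 and 8.48 CPM in XH7, 29.1 and 27.0 CPM in BSGX001), whereas SAG1 (-0.18, SE 0.12) and MF(ALPHA)2 (-0.69, SE 0.43) did not pass. In the X stage the median difference was -5.01 for the a-specific and -2.59 for the haploid-specific genes, so the low level in XH7 was there in both stages. A smaller share of cells with these transcripts and less of them in each cell cannot be told apart in RNA of a whole culture.

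**Figure D2:**
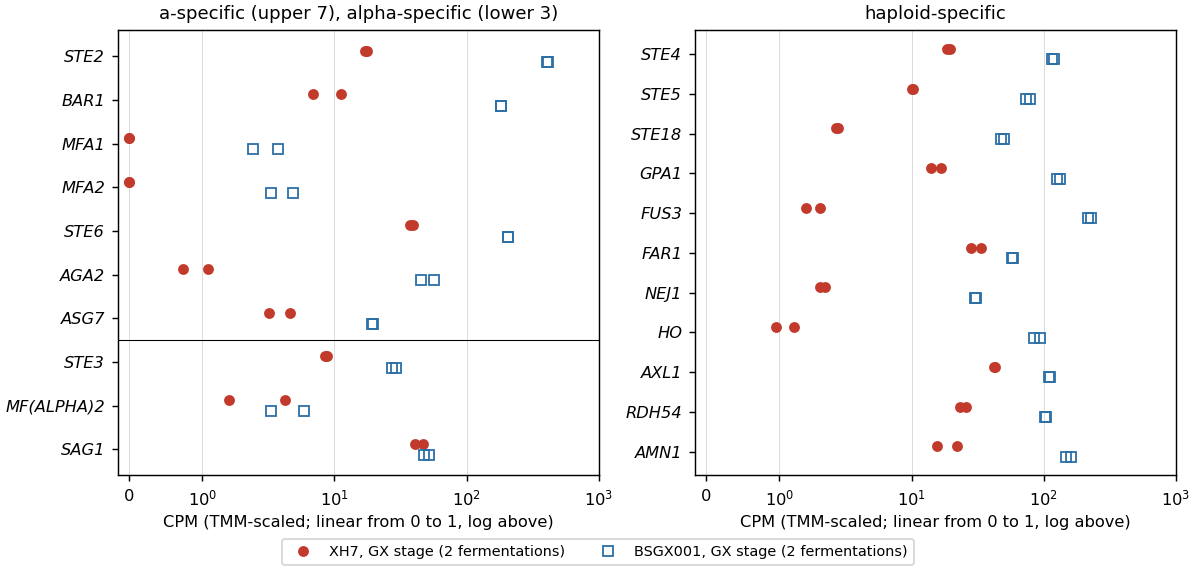
Mating type genes by library in the GX stage. The axis is CPM, linear up to 1 and logarithmic above, with the a-specific and alpha-specific genes on the left and the haploid-specific genes on the right. All 18 a-specific and haploid-specific genes lie lower in both XH7 fermentations (filled circles) than in both BSGX001 fermentations (open squares), while SAG1 and MF(ALPHA)2 lie close together.

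Stress genes were mostly lower in XH7. Of 30 heat shock and stress genes 25 were lower and 1 higher, with a median log2 difference of -2.51, against 32.6% and 0.014 over all genes. Together they took 0.669% and 0.603% of the counts of the XH7 libraries, against 3.74% and 3.76% in BSGX001. Beside HSP26, the plasma membrane protein gene HSP30 had 9.07 and 8.85 CPM in XH7 against 1885 and 1866 CPM in BSGX001 (-7.71, SE 0.50). HSP12, for a membrane-stabilizing protein, had 4.30 and 1.84 CPM in XH7 against 591 and 687 CPM in BSGX001 (-7.66, SE 0.39). The Hsp70 gene SSA3 was at 37.2 and 26.5 CPM in XH7 against 2279 and 2378 CPM in BSGX001, and DDR2 at 2.86 and 2.21 CPM against 163 and 139 CPM in BSGX001. The desiccation genes SIP18 (-5.73) and GRE1 (-5.55), the disaggregase HSP104 (-3.99), HSP82 (-3.07) and the cytosolic catalase CTT1 (-2.34) were lower as well. Not all genes of the list were lower: the chaperone genes YDJ1 (-0.11) and HSP31 (0.10), the glutaredoxin GRX1 (-0.28) and the glutathione peroxidase GPX2 (0.27) did not pass, and the thioredoxin gene TRX2 was higher (0.50, SE 0.12).

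Genes named for the stationary phase split, with 13 of 18 lower and 3 higher, against 32.6% and 33.4% of all genes. The lower genes include SNZ2 and SNZ3 (-0.58 each) and SNO2 and SNO3 (-0.74 each), pairs with the same values. SPG1, needed for survival at high temperature in stationary phase, was at 1.11 and 1.29 CPM in XH7 against 264 and 236 CPM in BSGX001 (-7.69, SE 0.19). FMP16 (-5.41), SPG4 (-4.42) and FMP45 (-4.21) were also lower. SNZ1 and SNO1, neighbours that encode the 2 subunits of vitamin B6 synthase, were higher, with 3393 and 3977 CPM in XH7 against 611 and 701 CPM in BSGX001 for SNZ1 (2.49, SE 0.21) and a difference of 1.99 for SNO1. Of the factors that turn on stress genes, MSN4 was higher in XH7 (0.79, SE 0.13). MSN2, which is in none of the lists, did not pass (0.07, SE 0.11).

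Storage carbohydrate, fatty acid oxidation and the tricarboxylic acid (TCA) cycle were lower in XH7 as groups. Over all genes 32.6% were lower and 33.4% higher. Of 18 glycogen and trehalose genes 12 were lower and 2 higher (median -0.97), led by the glycogenin GLG2 with 19.4 and 12.5 CPM in XH7 against 134 and 142 CPM in BSGX001. TPS1, trehalose 6-phosphate synthase, had 308 and 175 CPM in XH7 against 767 and 822 CPM in BSGX001 (-1.72, SE 0.24). GAC1, a glycogen-targeting phosphatase subunit (0.52), and the trehalase NTH1 (0.45) were higher, NTH1 not without BSGX001 replicate 1. Of 23 genes of fatty acid oxidation and the peroxisome 18 were lower (median -1.21), among them FOX2 (-3.23) and the acyl-CoA oxidase POX1 (-2.27) of the oxidation cycle and the carnitine acetyltransferase CAT2 (-2.17). FAA4, which activates long fatty acids for uptake and use, went the other way, with 1410 and 2080 CPM in XH7 against 283 and 273 CPM in BSGX001. YAT2, a further carnitine acetyltransferase, was also higher (1.18).

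Of 21 TCA cycle genes 17 were lower in XH7 and only PDA1, of pyruvate dehydrogenase, was higher (median -0.90). The citrate synthase CIT3 (-2.64), the aconitase ACO1 (-1.73) and the succinate dehydrogenase subunit SDH2 (-1.67) differed most. ACO1 had 705 and 344 CPM in XH7 libraries and 1708 and 1770 CPM in BSGX001 libraries, one of the wider gaps between the XH7 duplicates. Without XH7 replicate 2 the lower count of the TCA list was 12, as it was without BSGX001 replicate 2. Medians of the respiratory chain lists were nearer 0, and over all genes tested 33.4% were higher and 32.6% lower. In cytochrome c and complex IV, where BSGX001 lacks COX4, 4 of 12 genes were higher, COX4 itself among them, and 6 lower, counts that were 2 and 2 without BSGX001 replicate 1, 2 and 3 without BSGX001 replicate 2, and 2 and 4 without XH7 replicate 2. The list holds COX26, a small subunit, at 109 and 95.1 CPM in XH7 against 360 and 331 CPM in BSGX001. The anaerobic cytochrome c gene CYC7 was higher (453 and 392 CPM in XH7, 183 and 189 CPM in BSGX001), as was CYC1 (0.52, SE 0.17), though not without XH7 replicate 2 or either BSGX001 library. Of 22 complex IV assembly genes 11 were lower and 2 higher, with the copper chaperone SCO1 at -1.66, and of 16 ATP synthase genes 8 were lower and 0 higher, a lower count that was 14 without XH7 replicate 1 and 4 without any of the other 3 GX libraries.

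The largest differences towards XH7 included sugar and sugar alcohol genes. HXT13, a hexose transporter family member known to carry mannitol and sorbitol, had 1838 and 1753 CPM in XH7 against 8.69 and 10.3 CPM in BSGX001 (log2 difference 7.56, SE 0.30, edgeR adjusted p = 1.58e-07), next to DSF1 on the left end of chromosome V. Of 14 hexose transporter genes 8 were higher and 4 lower, against 33.4% and 32.6% of all genes. HXT15 and HXT16, which share near-identical sequence and had the same values, were at 520 and 442 CPM in XH7 against 37.3 and 39.2 CPM in BSGX001. The sorbitol dehydrogenase genes SOR1 and SOR2, likewise copies that cannot be separated, were at 574 and 459 CPM in XH7 against 24.8 and 30.8 CPM in BSGX001 (4.22, SE 0.16). HXT2, a high affinity glucose transporter, had 1004 and 1285 CPM in XH7 against 95.9 and 96.8 CPM in BSGX001, and HXT4 was higher by 2.54 (SE 0.34). HXT7 and its near copy HXT6, high affinity carriers that also take up xylose, were close in both strains, with 5610 and 5839 CPM in XH7 and 6201 and 5550 CPM in BSGX001 (-0.04, SE 0.13). HXT5, a transporter of slow-growing and stationary cells, was lower, with 20.8 and 20.5 CPM in XH7 against 1147 and 881 CPM in BSGX001 (-5.62, SE 0.26). Without genes that have a near-identical copy or a doubtful match, 5 of the hexose transporters were higher and 4 lower. HXT17 was not counted, so any of its reads placed on HXT13 could not be told apart.

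Genes for other sugars differed in both directions. SUC2, invertase, was at 11464 and 10948 CPM in XH7 against 624 and 608 CPM in BSGX001 (4.18, SE 0.17). The maltose genes MAL11, a transporter, and MAL13, an activator, had 0 counts in XH7, against 5869 and 5236 CPM for MAL11 and 122 and 125 CPM for MAL13 in BSGX001. MAL32, maltase, was among the most abundant transcripts of both strains, with 14905 and 11722 CPM in XH7 and 20152 and 19788 CPM in BSGX001 (-0.58, SE 0.17), a difference that did not pass without XH7 replicate 2 or BSGX001 replicate 1. IMA1, an isomaltase, was lower (-1.91, SE 0.20). The polyol and xylitol enzymes other than SOR1 and SOR2 were mostly lower, 5 of 8 in all, against 32.6% of all genes. Among the lower were the aldo-keto reductase genes GCY1 (-2.75), YDL124W (-2.67) and YJR096W (-1.99). The xylitol dehydrogenase XYL2 was lower too (18.6 and 18.3 CPM in XH7, 64.5 and 67.8 CPM in BSGX001).

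Genes of ribosome synthesis were higher in XH7 almost without exception. Of 129 genes listed for cytosolic ribosomal proteins 124 were higher and 0 lower, with a median of 0.84 against 0.014 over all genes. Their share of the counts was 9.21% and 9.08% in XH7 and 5.18% and 5.54% in BSGX001. The list also holds RPP1 (0.43), which encodes a subunit of RNase P and not a ribosomal protein. Of 86 ribosome biogenesis genes 84 were higher, 62 of them by 2-fold or more against 10.8% of all genes, with a median of 1.19. NOP16, of large subunit assembly, led them with 285 and 350 CPM in XH7 against 63.2 and 66.5 CPM in BSGX001 (2.29, SE 0.13). NUG1 had 334 and 407 CPM in XH7 against 99.6 and 90.6 CPM in BSGX001, and NSR1 467 and 618 CPM against 154 and 160 CPM in BSGX001. Of 20 genes listed for RNA polymerases I and III 19 were higher (median 0.81), with RPC37 at 1.77 and RPA34 at 1.68. These include RRN3 (0.50), an initiation factor and not a subunit. With any 1 GX library left out 0 ribosomal protein genes were lower, and library totals gave 120 higher and 1 lower. In the ribosome biogenesis promoters, AAAATTTT was in 81.4%, GCGATGAG in 57.0% and both in 47.7%, against 2.02% of all promoters with both. In the 129 ribosomal protein promoters the shares were 6.98% and 0.775%. Stress gene promoters held AGGGG in 56.7% of 30. Mitochondrial ribosomal protein genes did not follow the cytosolic ones: 23 of 69 were higher and 9 lower (median 0.13). Over all genes 33.4% were higher and 32.6% lower. The list also holds MRP8 (-0.765), which is not an established member of that ribosome. With library totals the split was 14 and 15. The higher count was 13 without XH7 replicate 1, 12 without BSGX001 replicate 1 and 11 without BSGX001 replicate 2.

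**Figure D3:**
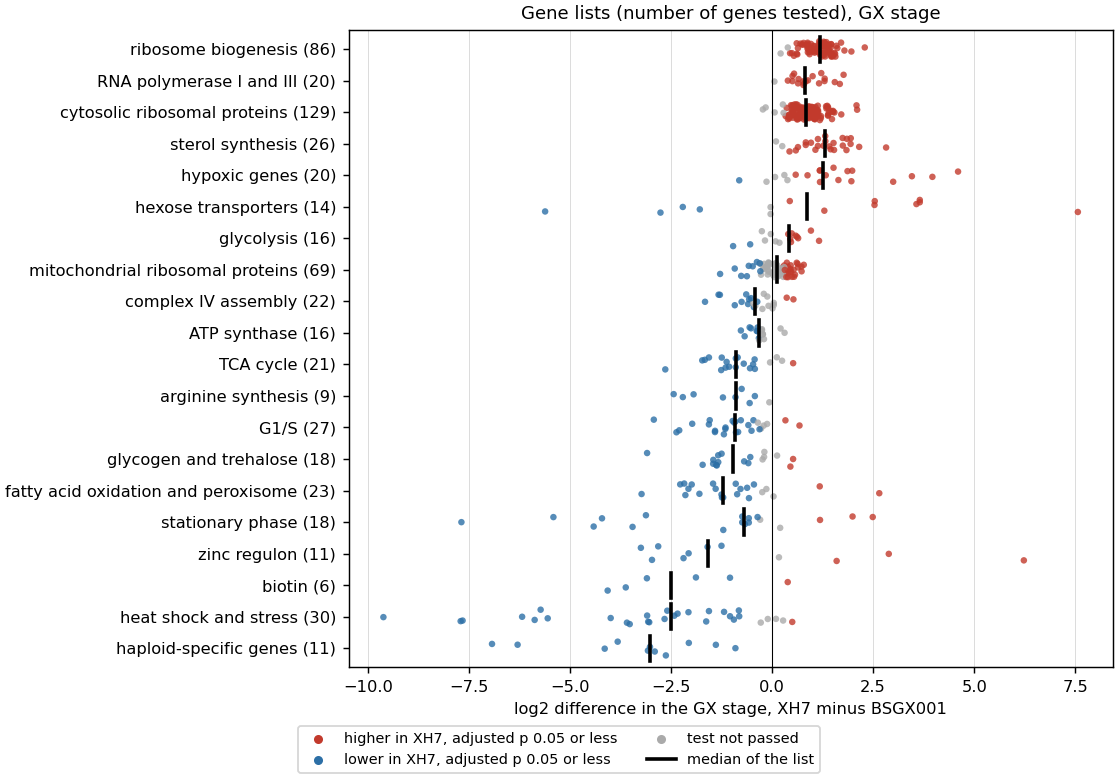
Log2 differences of single genes (XH7 minus BSGX001, GX stage) in 20 lists, with the number of genes tested. Red points are higher and blue points lower in XH7 at an adjusted p of 0.05 or less, grey points did not pass, and bars mark list medians. Ribosome biogenesis (median 1.19) and sterol synthesis (1.32) lie to the right, heat shock and stress (-2.51) to the left.

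Lipid synthesis and genes known from low oxygen formed a further block higher in XH7, where 33.4% of all genes were higher. Of 26 sterol synthesis genes 24 were higher and 0 lower, with a median of 1.32. ERG10, the thiolase at the start of the pathway, was at 1822 and 2693 CPM in XH7 against 319 and 320 CPM in BSGX001 (2.82, SE 0.18). ERG26 (2.15) and IDI1 (1.95) followed, as did the regulator of sterol uptake UPC2 (1.45), while ERG20 (0.10) and ERG24 (0.25) did not pass. Of 20 genes listed as hypoxic 15 were higher and 1 lower (median 1.26). The list also holds HYP2 (1.33), the eIF5A gene used with oxygen, and the repressor ROX1, neither of them a hypoxic gene. ANB1, the hypoxic translation factor eIF5A gene, had 61.9 and 61.4 CPM in XH7 against 1.74 and 3.33 CPM in BSGX001, and the cell wall gene DAN1 43.4 and 33.7 CPM against 1.86 and 3.08 CPM in BSGX001. HEM13, of heme synthesis (1.96), and the repressor ROX1 (1.87) were higher, and TIR2, a cell wall mannoprotein gene, was lower (-0.81). COX5B, the hypoxic subunit, did not pass (-0.14). Median differences in the X stage were 1.11 for the sterol list and 1.48 for the hypoxic list. The higher level in XH7 was thus there in both stages.

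MGA2, which activates the fatty acid desaturase gene OLE1, was at 515 and 666 CPM in XH7 against 55.9 and 51.5 CPM in BSGX001 (3.46, SE 0.15). OLE1 itself had 8875 and 14011 CPM in XH7 against 1631 and 1240 CPM in BSGX001 (3.00, SE 0.23). Of genes looked up after values had been seen, the acetyl-CoA carboxylase ACC1 was higher by 2.03 (SE 0.18), FAS1 by 1.997 (SE 0.19), FAS2 by 1.84 (SE 0.15) and the elongase ELO1 by 1.34 (SE 0.11). IZH4, a membrane protein gene of the zinc and sterol response, had 260 and 415 CPM in XH7 against 4.84 and 4.10 CPM in BSGX001 (6.23, SE 0.27). INA1, for a membrane protein of little known role, was at 1145 and 1318 CPM in XH7 against 18.5 and 21.1 CPM in BSGX001 (5.96, SE 0.21). In all 8 of these genes XH7 replicate 2 was above replicate 1, and both lay above the BSGX001 libraries.

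The genes of the xylose route were abundant in both strains. XKS1, xylulokinase, had 4069 and 4853 CPM in XH7 against 2075 and 1967 CPM in BSGX001 (1.14, SE 0.13, edgeR adjusted p = 5.79e-05), and RPE1, of the non-oxidative PPP, 4282 and 3403 CPM against 853 and 902 CPM in BSGX001 (2.13, SE 0.21, edgeR adjusted p = 2.41e-05). RKI1 (0.43) and TKL1 (0.34) were higher by little, calls that both lost without either BSGX001 GX library and TKL1 also without XH7 replicate 1, and TAL1 did not pass (4419 and 3708 CPM in XH7, 4306 and 4508 CPM in BSGX001). The minor isoforms of the pathway were lower: SOL4 (-4.63), GND2 (-3.63) and NQM1 (-2.52). The levels of the XI genes were not analysed here, since no row of the gene tables is named for them. Of 16 glycolysis genes 9 were higher and 2 lower, nearly all by under 2-fold, against 33.4% higher and 32.6% lower over all genes. HXK2, hexokinase II, was at 604 and 560 CPM in XH7 against 265 and 256 CPM in BSGX001 (1.16, SE 0.15), FBA1 did not pass (-0.03, SE 0.15), and TDH1 was lower (-0.96, SE 0.26).

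Genes beyond pyruvate differed in both directions. PDC1, the main pyruvate decarboxylase, had 7669 and 6437 CPM in XH7 against 2209 and 2329 CPM in BSGX001 (1.64, SE 0.18). ADH4, an alcohol dehydrogenase that rises in zinc shortage, was lower, with 96.3 and 87.4 CPM in XH7 against 1215 and 1564 CPM in BSGX001, as were the acetyl-CoA synthetase ACS1 (-3.00, SE 0.14) and PDC6 (-2.45, SE 0.16). The gluconeogenic genes FBP1, fructose-1,6-bisphosphatase, and PCK1, PEP carboxykinase, were higher in XH7: 168 and 232 CPM against 29.3 and 27.4 CPM in BSGX001 for FBP1 (2.81, SE 0.18), and 1916 and 3067 CPM against 394 and 357 CPM in BSGX001 for PCK1 (2.73, SE 0.29). MLS1, malate synthase of the glyoxylate cycle, was lower (18.0 and 19.2 CPM in XH7, 194 and 218 CPM in BSGX001). Its list of 14 had 6 genes higher and 6 lower, against 33.4% and 32.6% of all genes. CAT8, which activates gluconeogenic genes, was itself lower, at 91.8 and 82.6 CPM in XH7 against 310 and 309 CPM in BSGX001. In glycerol metabolism the external NADH dehydrogenase NDE2 (-3.13) and GUT2 (-2.33) were lower, and the dihydroxyacetone kinase DAK2 (2.41) and GPP2 (2.25), a glycerol phosphatase, higher. ZNF1, a regulator of genes for non-fermentable carbon sources, was higher, at 561 and 629 CPM in XH7 against 80.8 and 77.4 CPM in BSGX001 (2.91, SE 0.12).

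Of 27 G1/S genes 21 were lower in XH7 and 2 higher (median -0.91), with TOS4 at 7.32 and 4.24 CPM in XH7 against 46.7 and 42.8 CPM in BSGX001 (-2.93, SE 0.27) and the G1 cyclin PCL1 at -2.30. NRM1, the corepressor that ends G1/S transcription and that the study altered in later strains, was at 4.93 and 3.87 CPM in XH7 and at 11.3 and 9.36 CPM in BSGX001 (-1.22, SE 0.27). THI2, the thiamine regulator also altered there, was higher (77.0 and 56.0 CPM in XH7, 40.6 and 35.6 CPM in BSGX001), though not without XH7 replicate 1 or BSGX001 replicate 2. Daughter cell separation had 6 of 12 genes lower, led by the chitinase CTS1 with 73.5 and 58.3 CPM in XH7 against 599 and 582 CPM in BSGX001. Over all genes, 32.6% were lower and 33.4% higher.

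Most genes of the zinc and biotin lists were lower in XH7, though 3 zinc genes were higher. Of 11 zinc genes 7 were lower: the activator ZAP1 had 64 and 62.7 CPM in XH7 against 575 and 628 CPM in BSGX001 (-3.25, SE 0.30), the transporter ZRT1 1066 and 1156 CPM against 4681 and 4625 CPM in BSGX001, and ZPS1, a cell wall protein gene, 358 and 325 CPM against 2391 and 2420 CPM in BSGX001. The 3 zinc list genes that were higher were IZH4, IZH2 (2.89) and IZH1 (1.60), membrane proteins of sterol and lipid related function. In biotin use 5 of 6 were lower: the transporter VHT1 had 105 and 95.3 CPM in XH7 against 1760 and 1606 CPM in BSGX001 (-4.07, SE 0.48), BIO3 differed by -3.62 and BIO4 by -3.10. Only BPL1, the ligase that attaches biotin to enzymes, was higher (0.39, SE 0.12), though not without XH7 replicate 2 or BSGX001 replicate 1. Of 9 arginine synthesis genes 8 were lower (median -0.91), with ARG1 at 308 and 254 CPM in XH7 against 1465 and 1577 CPM in BSGX001. Of 12 genes for leucine, isoleucine and valine 6 were lower, and of 9 for lysine 5 were, which was 3 with any 1 GX library left out. Over all genes 32.6% were lower. The transaminase BAT2 was higher (2.08, SE 0.16), while its mitochondrial counterpart BAT1 was lower (-1.56, SE 0.14).

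In all, 10 genes had no read in any XH7 library and 10 or more in each BSGX001 library, and COX4 alone showed the reverse. Of these, 6 lay in pairs of neighbours. MAL13 and MAL11 lie next to each other on chromosome VII (1070293 to 1071714 and 1073963 to 1075813, R64), 19.2 and 15.1 kb from the end, and YGR290W, with no place in the R64 annotation used, was also at 0. In BSGX001 MAL11 averaged 3304 FPKM, at least 10800-fold above the limit for XH7, and MAL13 was at least 240-fold above it. YJL218W and REE1, the second a gene linked to enolase regulation, lie side by side on chromosome X, 22.0 and 23.1 kb from the end, with at least 149-fold and 2520-fold lower levels in XH7. NFT1, an ABC transporter gene, and YKR104W lie side by side on chromosome XI, 10.1 and 9.1 kb from the end. YMR321C, YGL052W and the pheromone gene MFA2 complete the set. YMR321C has a near-identical copy among the genes counted, so its reads cannot be separated from those of the copy. Of the 8 with an R64 place, 7 lie within 50 kb of a chromosome end. The share of all genes within that distance was not counted, so no excess near the ends can be read from this. Absent genes and sequence too different to be counted cannot be told apart from silence in these tables.

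The strain difference was compared with that of the X stage, where 367 genes were called higher and 552 lower in XH7 (15.5% of genes, 6.2% higher and 9.32% lower). Of the 1422 genes called in the GX stage, 561 were called in the same direction in the X stage (39.5% of the GX calls and 61.0% of the X calls), 228 higher and 333 lower, and 13 were called in the opposite direction. A test of the difference between the stages passed for 912 genes (15.4%) in which the strain difference was more positive in the GX stage and for 838 (14.2%) in which it was more negative, together 29.6% of genes, and 687 of the GX calls were among them. The size of these counts depended on single libraries, with 486 to 1052 more positive and 489 to 940 more negative when one was left out. The lowest counts of more positive genes, 486 to 519, came without either BSGX001 library of the GX stage or either XH7 library of the X stage.

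Cytosolic ribosomal proteins had medians of 0.84 in the GX stage and 0.85 in the X stage, with 5 of 129 genes more positive and 4 more negative by the stage test. Over all genes tested, 15.4% were more positive in the GX stage by that test and 14.2% more negative. Other lists had medians further apart. The stress genes had a median of -2.51 in the GX stage against -1.37 in the X stage, and 16 of 30 were more negative by test, with 1 more positive. HSP26 had 92.4 and 38.3 CPM in XH7 and 919 and 2344 CPM in BSGX001 in the X stage (log2 difference -4.65), closer together than in the GX stage. Of 23 fatty acid oxidation genes 18 were more negative (medians -1.21 and 0.54), of 18 glycogen and trehalose genes 14 (medians -0.97 and 0.40), and of 9 arginine synthesis genes all 9 (medians -0.91 and 0.83). ARG1 had 2574 and 3924 CPM in XH7 and 1641 and 1417 CPM in BSGX001 in the X stage, the opposite order to the GX stage. Mitochondrial ribosomal protein genes went the other way: 66 of 69 were more positive and 0 more negative, with medians of 0.13 and -0.97, and between 55 and 68 were so across the alternatives. Their medians were thus far from 0 in the X stage and near it in the GX stage.

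**Figure D4:**
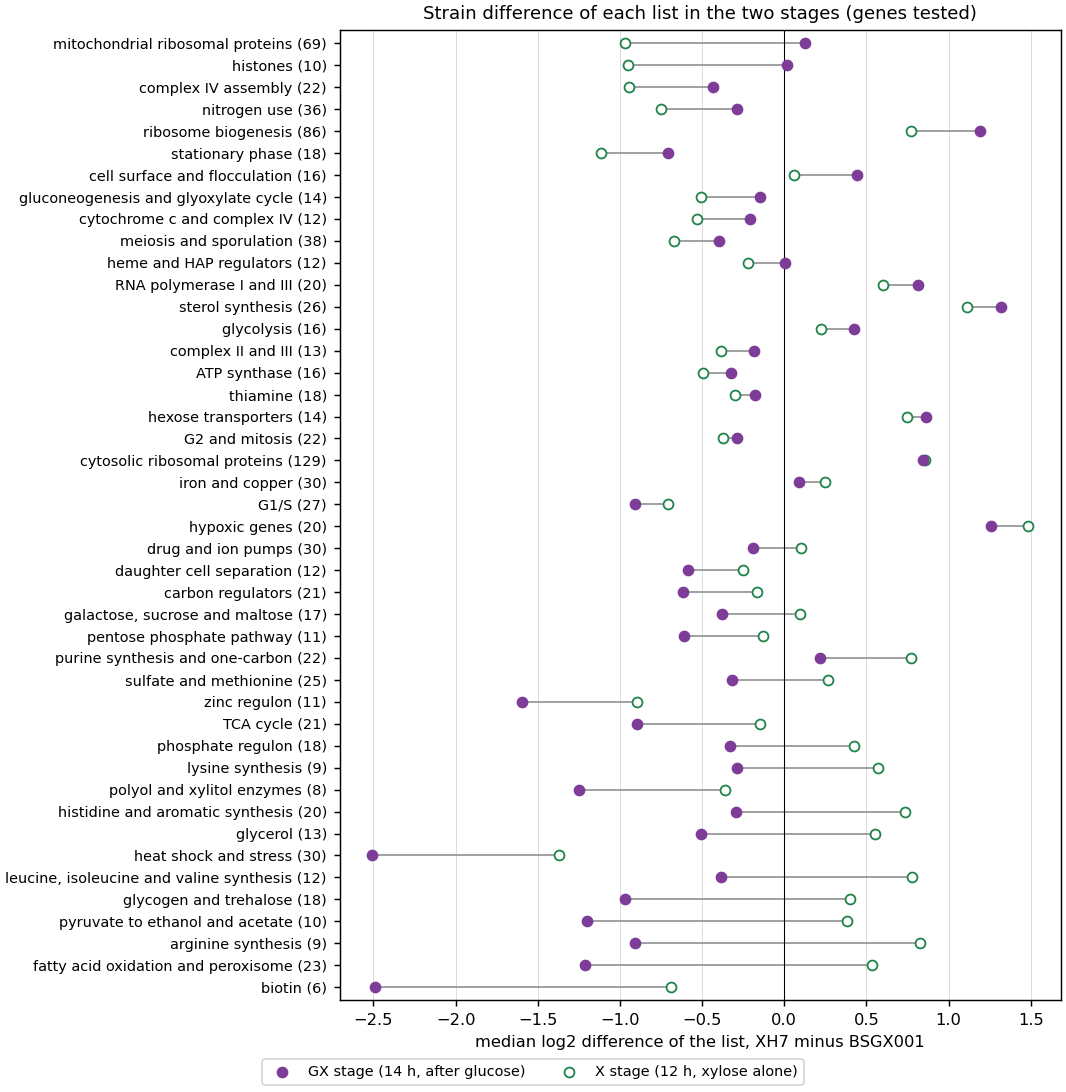
Median log2 difference (XH7 minus BSGX001) of each list in the GX stage (filled) and the X stage (open), sorted from lists more positive in the GX stage at the top to lists more negative at the bottom. Mitochondrial ribosomal proteins (0.13 and -0.97) are at the top, fatty acid oxidation (-1.21 and 0.54) and arginine synthesis (-0.91 and 0.83) near the bottom, and cytosolic ribosomal proteins nearly coincide.

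One chromosome arm stood apart from the others. On the left arm of chromosome V, before the centromere at 151987 to 152104 (R64), the median log2 difference of the 72 genes tested was 0.54 in the GX stage and 0.57 in the X stage, and 80.6% and 81.9% of them were above 0. In the GX stage 47 were higher and 8 lower, against 33.4% and 32.6% of all genes tested. The right arm of that chromosome had medians of 0.09 and 0.11. The other 31 arms had medians between -0.18 and 0.15 in the GX stage and between -0.23 and 0.12 in the X stage. The arm was singled out after the values of all arms had been seen, and DNA copy number was not tested. HXT13, DSF1, the cell wall transglycosylase gene UTR2 (2.24), CYC7 and the translation factor gene HYP2 (1.33) lie on this arm.

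**Figure D5:**
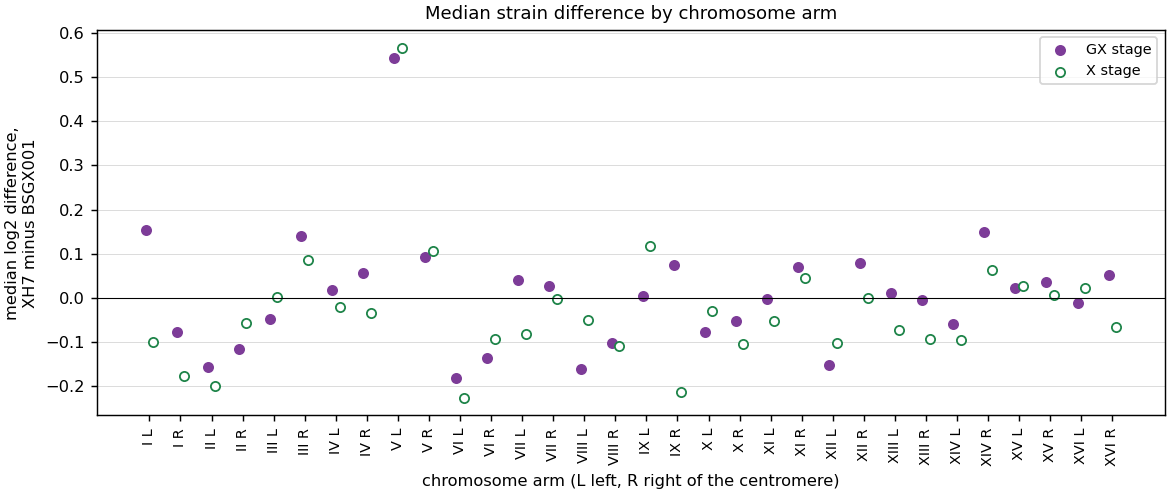
Median log2 difference (XH7 minus BSGX001) of the genes on each of 32 chromosome arms, GX stage filled and X stage open. The left arm of chromosome V stands at 0.54 and 0.57, and all other arms lie between -0.23 and 0.15.

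Neighbouring genes past 2-fold in one direction in both stages formed 13 runs of 3 or more, 6 higher and 7 lower in XH7. The longest was the 8 genes of the ASP3 repeat on chromosome XII (469317 to 489341), for extracellular asparaginase, all lower by 1.57 to 1.99 on the log2 scale, in near-identical copies whose reads cannot be separated. Runs higher in XH7 were UTR2, CYC7 and UTR4 on chromosome V (78053 to 81145), DSF1, HXT13, YEL068C and YEL067C on chromosome V (19589 to 26776), DAK2, ZNF1 and YFL051C on chromosome VI (23423 to 30540), NCP1, DOG2 and DOG1 on chromosome VIII, CTF13, SNO1 and SNZ1 on chromosome XIII, and the arsenic resistance genes ARR1, ARR2 and ARR3 on chromosome XVI. Runs lower in XH7 included VEL1, MNT2, ADH4 and ZRT1 on chromosome VII (11110 to 22108) and the metallothionein copies CUP1-1 and CUP1-2 with YHR054C on chromosome VIII.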

How the data were processed

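RNA was made by oligo(dT) selection and sequenced on an Illumina instrument. The authors deposited, per sample, an expected count and an FPKM value for each gene. The submitters' processing notes name the genome build R64 while the sources used here give no aligner, counter or strand setting. The deposited expected counts were rounded to whole numbers, and the deposited FPKM values were used only for levels between genes and an alternative test. Columns of the authors' own stage comparisons (log2 ratios and probabilities) were not used.

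All 8 samples were fitted in 4 groups with edgeR 4.0.16 in R 4.3.3 (TMM, a minimum count of 10, quasi-likelihood F test, Benjamini-Hochberg). A gene was called at 2-fold or more and an adjusted p up to 0.05. Log2 differences are XH7 minus BSGX001, and their SE is the difference divided by the root of F. On simulated data of 5885 genes with this design, 59.7%, 95.5% and 100% of changes of 1.5, 2 and 4-fold were found. Of unchanged genes 0.123% passed. The simulated counts had 1 trend of spread for all groups, and the groups were alike except in a small set of genes. These rates therefore need not hold for the real libraries. Of 6170 identifiers 5591 had an R64 locus tag, 5337 of them with the same coding length, and those without a tag held 3.04% of counts. Near-identical copies were searched with BLAST+ 2.17.0 among the counted genes only. Listed genes that were not counted, such as HXT17 and MAL12, could not be flagged as copies of others.

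The 50 gene lists and the comparison were chosen with earlier results of these data known. Named genes are all mating type and altered genes, the 10 largest differences each way (mean log2 CPM of 3 or more), the 6 most abundant genes at 0 in one strain, up to 3 each way per list, and the 6 largest differences between stages each way. Others are said to be chosen after values were seen, or are members of a list, of the ranking by FPKM, of the genes at 0 or of a run of neighbours. MSN2 is in none of these. Alternatives were 2 other scalings and library totals, other filters, DESeq2 1.42.0, limma 3.58.1 on log2(FPKM + 1) and log2(FPKM + 0.1), other limits, a replicate block and left-out libraries. Those that leave out an X stage library were added after the data had been seen.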

Additional observations from a re-analysis of the deposited data

Results flagged for a closer look

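The strain difference itself differed between the stages by a test of that difference (edgeR quasi-likelihood F test, Benjamini-Hochberg). It was more positive in the GX stage for 912 genes and more negative for 838. With 2 samples a group, single libraries could not be judged against their own group.

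The largest changes towards XH7 among genes called in the GX stage with a mean log2 CPM of 3 or more, on the log2 scale, were VBA5 (5.93), a vacuolar amino acid transporter homologue, FBP1 (3.98), PCK1 (3.38), the amino acid permease AGP1 (3.24) and the inseparable copies SOR2 (3.07) and SOR1 (3.07). In the GX stage VBA5 had 248 and 231 CPM in XH7 against 45.8 and 45.1 CPM in BSGX001, and in the X stage 0.853 and 2.40 CPM in XH7 against 20.9 and 18.9 CPM in BSGX001.

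Under the same limit, the largest changes towards BSGX001 were IME1 (-5.05), the inducer of meiosis, HSP26 (-4.97), HSP30 (-4.89), SIP18 (-4.13), SSA3 (-4.01) and NRS1 (-3.80). In the GX stage IME1 had 5.57 and 4.06 CPM in XH7 against 18.8 and 14.2 CPM in BSGX001 (log2 difference -1.76, SE 0.68), a call lost with any 1 GX library left out. In the X stage it had 108 and 28.0 CPM in XH7 against 7.96 and 5.73 CPM in BSGX001.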

How the results depend on the processing

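The 642 higher and 780 lower calls stayed within 1.5 times under the other scalings, filters, tests, left-out genes and left-out libraries run, which gave 501 to 719 and 649 to 932. They were 1327 and 1358 at 1.5-fold and 105 and 255 at 4-fold. The counts of the difference between stages, 912 more positive and 838 more negative, moved more: 1617 and 593 with library totals, where the median over genes was 0.236 against 0.054, 605 and 808 with DESeq2, 1527 and 573 with limma on log2(FPKM + 1), 1523 and 556 on log2(FPKM + 0.1), and 486 to 1052 and 489 to 940 with one library left out. The lowest more negative counts, 489 and 490, came without either BSGX001 library of the GX stage. TAL1, which had not passed at -0.12, ran between -0.25 and 0.004 with a GX library left out, turning positive without XH7 replicate 2. Of 3716 values of 266 named genes under alternatives, 3602 kept direction and side of the threshold, 112 in 27 genes no longer passed and 1, MF(ALPHA)2, newly passed. Same-numbered replicates did not deviate together (r = -0.24 in the GX stage), and a fit with a replicate block gave 640 higher and 778 lower calls, and 821 and 769 for the stages. Library totals moved all chromosome medians down by about the shift of the overall median. With 2 fermentations a strain, adjusted p-values rest on a spread shared across genes and groups.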

Other observations

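Groups not described above were mixed, and over all genes tested 33.4% were higher and 32.6% lower. Of 38 meiosis and sporulation genes 18 were lower and 7 higher in XH7, with SPS100 (-4.10), SPO11 (-3.01) and RIM4 (-2.90) lowest and SPO20 (2.21) highest. Of 36 genes of nitrogen use 18 were lower and 11 higher, with the inseparable ASP3 copies among the lower. The ammonium permease MEP2 had 6.05 and 5.71 CPM in XH7 against 43.2 and 44.1 CPM in BSGX001. The dicarboxylic amino acid permease DIP5 had 584 and 597 CPM in XH7 against 93.9 and 86.9 CPM in BSGX001. Of 18 thiamine genes 8 were higher and 8 lower, with THI73 at 2.07 and THI20 at 1.78. The lower count fell without BSGX001 replicate 1, and it holds SNZ2 with SNZ3 and SNO2 with SNO3, pairs with the same values. Of 18 phosphate genes 9 were lower and 3 higher (5 higher without XH7 replicate 1), and PHO84 and PHO89 differed widely between the XH7 duplicates (150 and 359 CPM for PHO84, 176 and 535 CPM for PHO89). In iron and copper use FRE4, a ferric reductase gene, was higher, with 265 and 556 CPM in XH7 against 23.5 and 26.7 CPM in BSGX001, and the copper transporter CTR1 lower (-2.47, SE 0.40).

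Histone genes differed in both directions: HTA1 (0.60) and HHT1 (0.60) were higher, and HTB2 (-2.51), HTA2 (-1.66) and HHF1 (-0.98) lower. The aquaporin genes AQY1 (-3.31) and AQY2 (-3.23) and the plasma membrane ATPase isoform PMA2 (-3.23) were lower, while the drug transporter QDR2 had 347 and 386 CPM in XH7 against 32.3 and 33.8 CPM in BSGX001. The stress-associated cell wall gene YGP1 (-4.55) was lower and the mannoprotein TIP1 (2.48) higher.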
